A study of Homo sapiens with 16 samples.

Results

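The transcriptional response to palbociclib plus indisulam was measured in SUM159, an established human breast cancer cell line used as a model of triple-negative disease, as the libraries labelled P+I against the libraries labelled UT. The 4 libraries of these 2 groups, chosen by cell line and treatment in the labels, belonged to a series of 16 RNA-seq libraries in 8 groups, and every expressed gene was examined. UT cells were untreated, and P+I cells received 2 µM palbociclib together with 3 µM indisulam for 16 h. A sampling time for the untreated cells is not given in the labels. Both groups were grown in DMEM/F12 with serum, penicillin and streptomycin, insulin and hydrocortisone, so that a glucocorticoid and insulin were present in treated and untreated cells alike. The same line was also given each drug alone at the same dose and time (PD, palbociclib, and IN, indisulam), and the lung cancer line A549 was treated in parallel, in a different medium. Each group held 2 libraries. The series describes these as technical duplicates of 1 line, so the p-values measure the spread between these samples and not that between independent cultures.

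Palbociclib blocks the cyclin-dependent kinases CDK4 and CDK6, which phosphorylate the retinoblastoma protein RB. Unphosphorylated RB binds E2F factors, and its relatives RBL1 and RBL2 do so within the DREAM complex. In this way they hold the genes of DNA replication and mitosis silent. Indisulam joins the splicing factor RBM39 to DCAF15, the substrate receptor of a CUL4 ubiquitin ligase, and RBM39 protein is then destroyed. The study asked whether the 2 drugs together push cancer cells into senescence, a lasting arrest of the cell cycle with secretion of inflammatory and matrix factors. Gene counts report the amount of RNA per gene and do not resolve splice forms or protein.

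Gene counts were 21994527 and 21926985 in the UT libraries and 30476269 and 25095187 in the P+I libraries, and 3 counts corresponded to between 0.0984 and 0.137 CPM, or counts scaled to the same library size. Duplicate molecules from PCR are not separated in these counts, so the floor stands for counting error alone. The identity of the line was checked with markers. VIM, CD44, EGFR, CAV1, AXL and ZEB1, which mesenchymal breast cells express, were present in all 4 libraries. PGR was at 0, ESR1 was at most 0.478 CPM, and the epithelial genes CDH1 and EPCAM were below 1 CPM, whereas ERBB2 lay between 92.8 and 152 CPM. Of the other luminal breast genes, TFF1 was at most 0.0455 CPM. GATA3 lay between 4.68 and 6.61 CPM and FOXA1 between 1.77 and 3.15 CPM, both higher in the P+I libraries than in UT. Of 9 markers of the A549 line, FGA was at 0 and FGB, FGG, GPX2 and ALDH1A1 were at most 0.364 CPM. AKR1B10 lay between 2.95 and 3.24 CPM, and ALDH3A1 went from 1.14 and 1.14 CPM in UT to 3.38 and 4.06 CPM in P+I. AKR1C1, which is also an NRF2 target, was at 43.9 and 44.7 CPM in UT and 97.5 and 100.2 CPM in P+I, and AKR1C2 at 44.2 and 45.9 CPM and then 86.3 and 85.3 CPM. In A549 itself the lowest levels of these 2 were 1094 and 1232 CPM. Of the markers of other cells, MS4A1 and NKG7 were at 0 in all 4 libraries, CD3D and CD3E were at most 0.159 CPM, PTPRC lay between 3.61 and 3.98 CPM, CSF1R between 1.37 and 1.99 CPM and ITGAM between 0.410 and 0.919 CPM. CD14, of monocytes, was at 1.18 and 0.912 CPM in UT and 2.43 and 3.03 CPM in P+I. PECAM1 was at 18.4 and 16.6 CPM in UT and 38.9 and 40.7 CPM in P+I, whereas the other endothelial markers VWF, CDH5 and KDR were at most 0.319 CPM. The part of other cell types in the results was not tested. In bulk RNA, fewer cells in a state and less RNA per cell cannot be told apart.

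Of 16080 genes tested, 65.3% differed between P+I and UT at an adjusted p under 0.05, 32.2% higher (5175 genes) and 33.1% lower (5321 genes). The counts of each gene list below stand beside these shares. A change of at least 2-fold was found in 10.6% of the tested genes in the higher direction (1712 genes) and in 4.27% in the lower direction (687 genes). The direction depended on the level. Among 2861 genes with a mean below 1 CPM, 31.3% were higher and 4.40% lower, and among 4622 genes at 50 CPM or more, 20.4% were higher and 60.6% lower. The counts of lists made up largely of highly expressed genes are therefore to be read beside the second pair of shares as well. A gene near the floor that passed the filter through the P+I libraries alone had to differ, so such genes lend no weight to these counts. Among the 10646 genes whose mean reached 5 CPM, 365 rose and 491 fell at least 2-fold, and 28 rose and 86 fell at least 4-fold. Scaling to total counts in place of the trimmed mean of M-values (TMM) moved the median log2 change of all genes up by 0.15 and the share of calls that were higher from 49.3% to 64.3%, so small changes below are relative to TMM scaling.

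**Figure D1:**
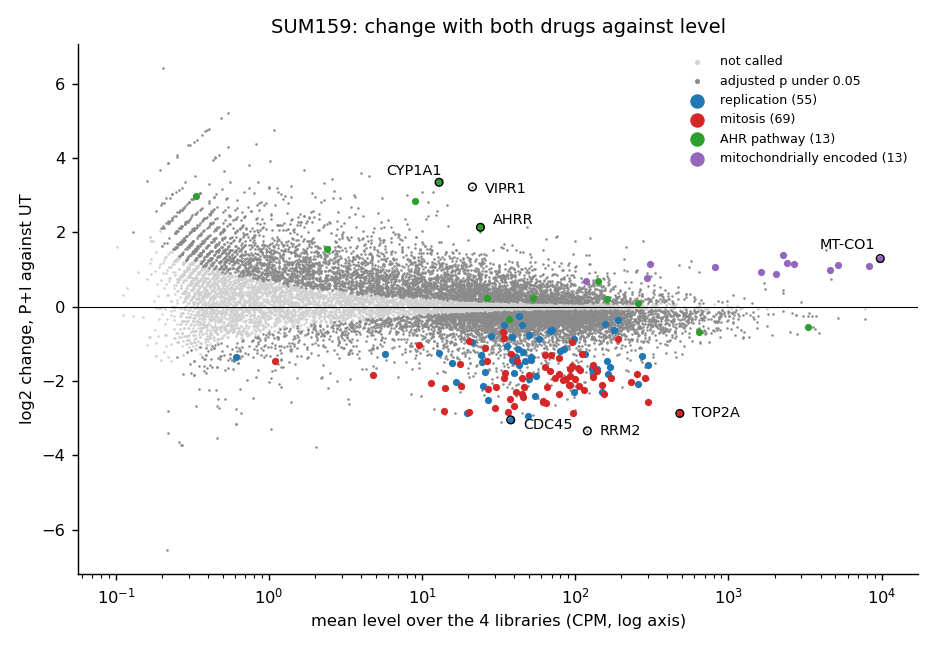
Log2 change of each tested gene between P+I and UT (vertical) against its mean level over the 4 libraries in CPM (horizontal, log axis), with the members of 4 gene lists in colour and 7 genes circled. Replication and mitosis genes lie below 0 throughout, mitochondrially encoded genes lie above 0, and the largest changes of the AHR pathway are increases such as CYP1A1.

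The promoters of the genes that fell most held E2F and CHR letters more often than those of genes that rose. RefSeq promoters (GRCh38.p14, 250 bases before to 50 after the start) were matched for 8482 of 10240 protein-coding genes whose mean reached 5 CPM, and were searched on both strands. The letters of E2F sites were TTTCCCGC, TTTCGCGC, TTTGCCGC or TTTGGCGC. For the cell cycle homology region, CHR, which the DREAM complex reads, the word TTTGAA was searched. A variant of that element that is found in other promoters of the cell cycle was included as well and reads TTCGAA. The third element was the CCAAT box, which the factor NF-Y binds in many promoters of the cell cycle. The last was the xenobiotic response element, XRE, of the aryl hydrocarbon receptor, searched as TNGCGTG. None of these words contains another. Among all 27305 promoters of the table, 3.33% held the E2F letters, 16.6% the CHR, 35.7% CCAAT and 5.51% the XRE. Among the 8482 genes matched here the shares were 5.66%, 11.1%, 37.3% and 7.37%. Among the 71 genes that fell at least 4-fold, 32.4% held an E2F site, 47.9% a CHR and 63.4% a CCAAT box. The shares were 3.40%, 9.79% and 32.3% among the 235 genes that rose at least 2-fold. Read the other way, 14.2% of 480 genes with an E2F site fell at least 2-fold against 4.15% of 8002 genes without one. For the CHR it was 12.6% of 944 genes against 3.73%, for both elements together 20% of 65 genes, and for neither 3.17%. Such a match is a description of the letters and not evidence of binding.

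The 250 bases before the start are shown for 7 genes, to show the elements beside the changes reported below. Capitals mark the E2F letters in E2F1, RBL1 and PCNA, the CHR letters in TOP2A, PLK1 and MKI67, and the XRE letters in AHRR and, farthest from the start, in MKI67. In E2F1 the matches began at -33 and -20 from the start, in RBL1 at -26 and -16, and in PCNA at -59. The CHR letters began at -194 and -151 in TOP2A, at -29 in PLK1, and at -47 and -29 in MKI67, and the AHRR match began at -32.
E2F1, chr20:33686386-33686635, - strand: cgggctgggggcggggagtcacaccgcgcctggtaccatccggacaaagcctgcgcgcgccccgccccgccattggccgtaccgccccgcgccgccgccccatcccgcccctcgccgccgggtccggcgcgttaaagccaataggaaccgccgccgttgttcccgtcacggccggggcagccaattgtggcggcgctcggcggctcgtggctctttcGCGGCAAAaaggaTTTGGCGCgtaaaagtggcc
RBL1, chr20:37095998-37096247, - strand: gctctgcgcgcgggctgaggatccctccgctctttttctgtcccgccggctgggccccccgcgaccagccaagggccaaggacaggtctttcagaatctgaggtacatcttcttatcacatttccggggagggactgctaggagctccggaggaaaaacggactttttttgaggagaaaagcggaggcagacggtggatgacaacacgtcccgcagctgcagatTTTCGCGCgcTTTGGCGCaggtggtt
PCNA, chr20:5126623-5126872, - strand: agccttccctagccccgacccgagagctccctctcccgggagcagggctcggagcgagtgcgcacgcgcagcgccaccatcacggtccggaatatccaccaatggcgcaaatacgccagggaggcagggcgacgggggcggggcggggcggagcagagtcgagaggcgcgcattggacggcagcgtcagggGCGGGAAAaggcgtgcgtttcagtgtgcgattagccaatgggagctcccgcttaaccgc
TOP2A, chr17:40417897-40418146, - strand: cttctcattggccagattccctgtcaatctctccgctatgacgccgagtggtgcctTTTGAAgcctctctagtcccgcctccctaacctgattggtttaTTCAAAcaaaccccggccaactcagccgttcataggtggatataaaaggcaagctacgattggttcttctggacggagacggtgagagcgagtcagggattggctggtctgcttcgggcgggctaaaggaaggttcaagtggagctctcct
PLK1, chr16:23678639-23678888, + strand: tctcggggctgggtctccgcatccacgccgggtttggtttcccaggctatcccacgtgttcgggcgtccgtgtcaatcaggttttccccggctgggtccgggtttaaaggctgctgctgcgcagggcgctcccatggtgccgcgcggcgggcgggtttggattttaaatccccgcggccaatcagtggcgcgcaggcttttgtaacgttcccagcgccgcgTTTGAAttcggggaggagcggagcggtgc
MKI67, chr10:128126424-128126673, - strand: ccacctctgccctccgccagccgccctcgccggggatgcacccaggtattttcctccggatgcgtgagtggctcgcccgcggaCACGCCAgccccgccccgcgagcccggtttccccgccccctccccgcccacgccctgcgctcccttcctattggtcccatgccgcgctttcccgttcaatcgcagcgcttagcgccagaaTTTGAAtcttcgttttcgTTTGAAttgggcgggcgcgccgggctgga
AHRR, chr5:321464-321713, + strand: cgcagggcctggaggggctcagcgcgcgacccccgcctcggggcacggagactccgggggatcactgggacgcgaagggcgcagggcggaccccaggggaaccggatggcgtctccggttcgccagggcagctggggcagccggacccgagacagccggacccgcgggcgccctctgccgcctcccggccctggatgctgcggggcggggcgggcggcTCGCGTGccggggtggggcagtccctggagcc

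In the list of DNA replication genes, 55 of the 55 tested members were called lower and 0 higher, with a median log2 change of -1.42, beside 33.1% lower and a median of 0.01 over all genes. P+I did not overlap UT in any of the 55 (over all genes, 13278 of 16080 did not overlap), and the smallest change was -0.27. CDC45, part of the replicative helicase, stood at 66.1 and 69.02 CPM in the UT libraries and 8.14 and 8.22 CPM in the P+I libraries (log2 change -3.05 ± 0.065 (SE), adjusted p = 2.7e-16). CLSPN, which relays replication stress to the checkpoint, stood at 83.2 and 89.8 CPM in the UT libraries and 11.1 and 11.3 CPM in the P+I libraries (log2 change -2.95 ± 0.062 (SE), adjusted p = 2.3e-16). POLE2, a subunit of DNA polymerase epsilon, stood at 34.8 and 34.1 CPM in the UT libraries and 4.58 and 4.83 CPM in the P+I libraries (log2 change -2.87 ± 0.086 (SE), adjusted p = 1.5e-14). In each of these the highest P+I library lay far below the lowest UT library. The clamp PCNA fell from 242 and 258 CPM to 50.4 and 50.7 CPM (log2 change -2.31 ± 0.048 (SE), adjusted p = 2.1e-16). Of the licensing factors, CDT1 fell by 2.15, CDC6 by 1.80 and MCM2, from 259 and 250.2 CPM to 81.99 and 82.4 CPM, by 1.63 on the log2 scale.

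Genes of deoxynucleotide supply moved with them. Of 15 members, 12 were called lower and 0 higher, with a median of -1.14. RRM2, the S-phase subunit of ribonucleotide reductase, stood at 217 and 219 CPM in UT and 19.96 and 23.3 CPM in P+I, and TYMS, which makes thymidylate, at 209 and 212 CPM and 21.3 and 22.1 CPM. Both were among the 15 largest falls at a mean of at least 5 CPM, and both P+I values lay well below the UT values. TK1, the salvage thymidine kinase, went from 144 and 145 CPM to 43.7 and 46.5 CPM (log2 change -1.68 ± 0.045 (SE), adjusted p = 3.4e-15). RRM1, the large reductase subunit, went from 322 and 341 CPM to 120.2 and 124 CPM (log2 change -1.44 ± 0.042 (SE), adjusted p = 9.0e-15). RRM2B, the p53-induced small subunit, did not pass the test, at 35.4 and 34.3 CPM in UT and 36.8 and 38.2 CPM in P+I (log2 change 0.10 ± 0.056 (SE), adjusted p = 0.11), but was called higher with total-count scaling.

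The mitosis list fell furthest. Here 69 of the 69 tested members were called lower and 0 higher, with a median log2 change of -1.92. P+I did not overlap UT in any member (over all genes, 13278 of 16080 did not overlap). The changes ran from -2.87 to -0.68. TOP2A, the topoisomerase that untangles sister chromatids, stood at 824 and 871 CPM in the UT libraries and 114 and 117 CPM in the P+I libraries (log2 change -2.87 ± 0.039 (SE), adjusted p = 4.3e-18). KIF20A, a kinesin of cytokinesis, stood at 168 and 169 CPM in the UT libraries and 23.3 and 23.4 CPM in the P+I libraries (log2 change -2.85 ± 0.045 (SE), adjusted p = 1.5e-17). AURKB, the kinase of the chromosomal passenger complex, stood at 66.1 and 60.7 CPM in the UT libraries and 9.14 and 8.56 CPM in the P+I libraries (log2 change -2.84 ± 0.074 (SE), adjusted p = 2.8e-15). In all 3, both P+I libraries lay far below UT. The proliferation marker MKI67 went from 483 and 537 CPM to 90.8 and 80.1 CPM (log2 change -2.58 ± 0.069 (SE), adjusted p = 4.0e-15). FOXM1, the factor that activates mitotic genes, went from 272 and 268 CPM to 72.4 and 70.1 CPM (log2 change -1.92 ± 0.039 (SE), adjusted p = 1.7e-16). PLK1, which drives mitotic entry, went from 257 and 258 CPM to 50.1 and 50.4 CPM (log2 change -2.36 ± 0.039 (SE), adjusted p = 2.4e-17). CDC20, the activator of the anaphase-promoting complex, changed by -2.04 (adjusted p = 4.0e-17), the kinetochore protein SPC25 by -2.79 (adjusted p = 1.4e-13), and CDCA3, a regulator of mitotic entry outside the list, from 60.3 and 56.8 CPM to 7.02 and 6.47 CPM, by -3.11 (adjusted p = 7.7e-16).

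Among genes of chromosome condensation and the nuclear lamina, all 14 were called lower, with a median of -1.60. The condensin subunit NCAPH stood at 94.5 and 93.8 CPM in the UT libraries and 12.2 and 12.6 CPM in the P+I libraries (log2 change -2.93 ± 0.061 (SE), adjusted p = 2.0e-16). NCAPG and NCAPD2, also of condensin, changed by -2.48 (adjusted p = 1.5e-16) and -2.16 (adjusted p = 1.2e-16). In the lamina, LMNB1 stood at 209.6 and 201 CPM in UT and 41.9 and 40.5 CPM in P+I, and LBR, the lamin B receptor, fell from 149 and 147 CPM to 56.7 and 52.5 CPM (log2 change -1.44 ± 0.055 (SE), adjusted p = 4.3e-13). LMNA, which encodes lamins A and C, moved by only -0.15 and was no longer called with total-count scaling.

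Of the cyclins, CDKs and CDK inhibitors, 24 of 27 were called lower and 1 higher, and the median was -1.13. With total-count scaling 21 were lower and 3 higher. CCNA2, the cyclin A of S phase and G2, stood at 174 and 175 CPM in the UT libraries and 25.8 and 24.6 CPM in the P+I libraries (log2 change -2.79 ± 0.049 (SE), adjusted p = 4.0e-17). CDK1, the mitotic kinase, stood at 149.8 and 154 CPM in the UT libraries and 31.7 and 31.99 CPM in the P+I libraries (log2 change -2.26 ± 0.052 (SE), adjusted p = 6.0e-16). CCNB1, its cyclin, stood at 432 and 428 CPM in the UT libraries and 137 and 139.9 CPM in the P+I libraries (log2 change -1.64 ± 0.041 (SE), adjusted p = 1.9e-15). The cyclin E genes differed from each other. CCNE2 went from 28.7 and 29.1 CPM to 3.80 and 4.18 CPM, whereas CCNE1 went from 20.2 and 20.5 CPM to 17.3 and 16.3 CPM, and the CCNE1 call was lost with total-count scaling. Their kinase CDK2 went from 103 and 95.2 CPM to 38.8 and 39.03 CPM. The target kinases of palbociclib moved unequally. CDK4 stood at 197 and 211 CPM in the UT libraries and 93.97 and 92.01 CPM in the P+I libraries (log2 change -1.13 ± 0.042 (SE), adjusted p = 2.7e-13), and CDK6 at 116 and 129.9 CPM in the UT libraries and 105 and 103 CPM in the P+I libraries (log2 change -0.24 ± 0.063 (SE), adjusted p = 0.0029), a call that was lost with total-count scaling and without UT replicate 2. CCND1, their partner cyclin D1, was the 1 member called higher, at 471 and 456 CPM in the UT libraries and 578 and 594 CPM in the P+I libraries (log2 change 0.34 ± 0.034 (SE), adjusted p = 1.6e-07). CCND3 fell by 0.36 on the log2 scale.

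No CDK inhibitor was called higher with TMM scaling. CDKN1A, which encodes p21, stood at 41.2 and 39.4 CPM in UT and 27.2 and 28.1 CPM in P+I, CDKN1B (p27) changed by -0.50 (adjusted p = 1.4e-04), and CDKN2C (p18), itself an E2F target, by -1.28 (adjusted p = 1.3e-11). CDKN2A, which encodes p16, had 1 and 1 counts in UT and 0 and 0 in P+I, and CDKN2B had 0 and 0 counts and then 3 and 1, so no difference was detectable for either at this depth. CDKN1C (p57) was at a mean of 0.421 CPM and did not pass the test (log2 change 0.92, adjusted p = 0.0798), but was called higher with total-count scaling.

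Within the RB and E2F list itself, 14 of 18 were lower and 3 higher, with a median of -0.87. E2F1, an activator whose promoter is shown above, stood at 46.9 and 46.6 CPM in the UT libraries and 13.8 and 14.1 CPM in the P+I libraries (log2 change -1.75 ± 0.068 (SE), adjusted p = 5.7e-13). E2F8, a repressor of the family, stood at 21.7 and 19.7 CPM in the UT libraries and 3.09 and 3.04 CPM in the P+I libraries (log2 change -2.75 ± 0.11 (SE), adjusted p = 5.3e-13). MYBL2, the B-MYB subunit that turns DREAM into an activator, stood at 131 and 124 CPM in the UT libraries and 20.2 and 20.8 CPM in the P+I libraries (log2 change -2.63 ± 0.052 (SE), adjusted p = 1.5e-16). The 3 pocket proteins went different ways. RBL1 (p107) fell from 59.4 and 60.2 CPM to 14.1 and 14.5 CPM (log2 change -2.07 ± 0.060 (SE), adjusted p = 1.1e-14), RB1 from 117 and 120.2 CPM to 61.03 and 63.5 CPM (log2 change -0.93 ± 0.046 (SE), adjusted p = 1.3e-11), and RBL2 (p130), the pocket protein of resting cells, rose from 63.6 and 64.4 CPM to 85.4 and 88.7 CPM (log2 change 0.44 ± 0.047 (SE), adjusted p = 2.6e-07). TFDP2, an E2F partner, rose by 0.61 on the log2 scale.

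Repair genes that act in S phase fell as a group. Of the homologous recombination and Fanconi genes, 32 of 36 were lower and 1 higher, with a median of -1.19. FANCI, of the Fanconi core reaction, stood at 162 and 168 CPM in the UT libraries and 31.4 and 30.2 CPM in the P+I libraries (log2 change -2.42 ± 0.046 (SE), adjusted p = 8.6e-17). EXO1, the end-resecting nuclease, stood at 69.2 and 69.2 CPM in the UT libraries and 13.9 and 12.2 CPM in the P+I libraries (log2 change -2.40 ± 0.063 (SE), adjusted p = 2.9e-15). BRCA1 stood at 155 and 163 CPM in the UT libraries and 47.5 and 48.7 CPM in the P+I libraries (log2 change -1.72 ± 0.043 (SE), adjusted p = 1.7e-15). These 3 did not overlap between the groups, and neither did 13278 of the 16080 tested genes. BRCA2 changed by -1.22 (adjusted p = 4.3e-11) and FANCD2 by -2.22 (adjusted p = 4.9e-15), while FANCF was the member that rose, by 0.40 (adjusted p = 0.0028). Among histone genes, 9 of 17 were lower and 4 higher. Of histones whose RNA can be polyadenylated, H2AX fell by 1.43 and H2AZ1 by 1.29 on the log2 scale. H2AJ, a variant that accumulates in senescent cells, rose from 15.1 and 12.7 CPM to 26.6 and 25.1 CPM (log2 change 0.90 ± 0.082 (SE), adjusted p = 4.5e-08).

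**Figure D2:**
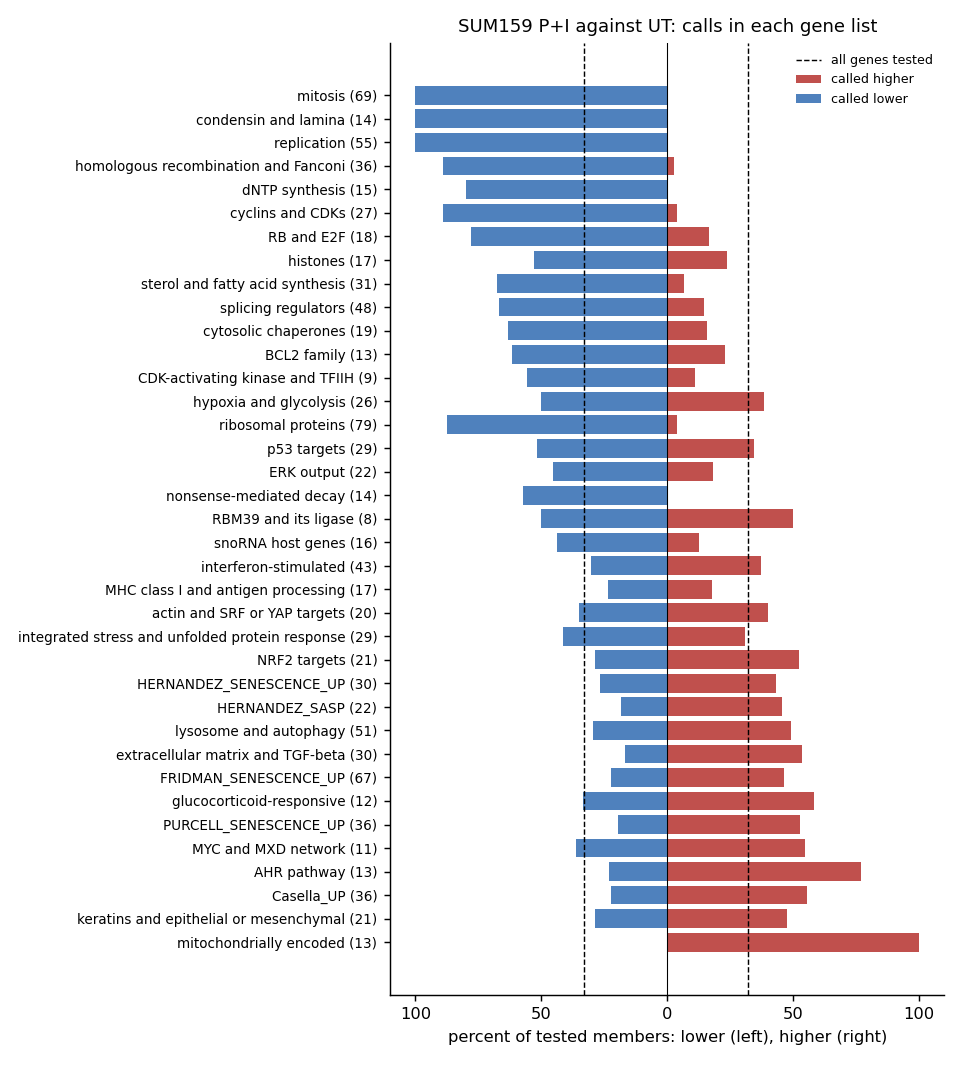
Percent of the tested members of each gene list called higher (right) or lower (left) in P+I against UT, with the number tested in parentheses and lists in order of their median log2 change. Dashed lines mark all tested genes, at 33.1% lower and 32.2% higher, and the mitosis, condensin and replication bars reach 100 on the lower side.

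The target of indisulam and its ligase moved little apart from RBM39. Of 8 genes 4 were called higher and 4 lower, and 2 higher without UT replicate 2. RBM39 RNA stood at 229.6 and 224 CPM in UT and 389 and 408 CPM in P+I, so it was higher in both treated libraries. RBM23, its paralog, stood at 62.4 and 62.9 CPM in the UT libraries and 66.5 and 69.6 CPM in the P+I libraries (log2 change 0.12 ± 0.046 (SE), adjusted p = 0.033). The RBM23 call was lost in DESeq2 and without UT replicate 1, UT replicate 2 or P+I replicate 2. DCAF15, the receptor, stood at 30.1 and 28.4 CPM in the UT libraries and 22.7 and 23.2 CPM in the P+I libraries (log2 change -0.35 ± 0.068 (SE), adjusted p = 2.4e-04). Of the ligase scaffolds, CUL4A changed by -0.44 (adjusted p = 2.8e-08) and CUL4B by 0.32 (adjusted p = 1.2e-06), and the adaptor DDB1 by -0.36 (adjusted p = 8.5e-08). The CDK-activating kinase, a trimer of CDK7, cyclin H and MNAT1 within the general factor TFIIH, was affected at 1 subunit more than at the others. CCNH, the cyclin H gene, stood at 54.6 and 53.8 CPM in UT and 23.5 and 20.997 CPM in P+I. CDK7 stood at 65.3 and 68.5 CPM in the UT libraries and 69.3 and 68.8 CPM in the P+I libraries (log2 change 0.05 ± 0.047 (SE), adjusted p = 0.40), and MNAT1 went from 25.2 and 26.3 CPM to 22.3 and 21.99 CPM, a call lost with total-count scaling and without UT replicate 2. CDK7 was called higher with total-count scaling. Of TFIIH, GTF2H1 stood at 97.8 and 98.8 CPM in the UT libraries and 52.96 and 52.8 CPM in the P+I libraries (log2 change -0.89 ± 0.048 (SE), adjusted p = 3.8e-11), and GTF2H5 at 31.4 and 32.2 CPM in the UT libraries and 42.8 and 43.6 CPM in the P+I libraries (log2 change 0.44 ± 0.062 (SE), adjusted p = 8.6e-06). Over the list, 5 of 9 genes were called lower and 1 higher, and 3 and 3 with total-count scaling.

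Among splicing regulators, 32 of 48 were called lower (66.7%) and 7 higher (14.6%), with a median of -0.32. With total-count scaling the counts were 26 and 14 (median -0.17). Most members lay at 50 CPM or more, where 60.6% of all genes were lower and 20.4% higher (median -0.19). The shares of the list were thus near those of genes at its level. HNRNPH1 stood at 562 and 531 CPM in the UT libraries and 233 and 229 CPM in the P+I libraries (log2 change -1.24 ± 0.039 (SE), adjusted p = 3.6e-14). SF3A1, a subunit of the U2 particle, stood at 252 and 254 CPM in the UT libraries and 129.9 and 129 CPM in the P+I libraries (log2 change -0.97 ± 0.037 (SE), adjusted p = 4.2e-13). TRA2B, an activator of exon inclusion, stood at 311 and 297 CPM in the UT libraries and 169 and 164 CPM in the P+I libraries (log2 change -0.87 ± 0.038 (SE), adjusted p = 2.8e-12). In these the P+I values were near one another and below UT. PTBP2, which is held low by its paralog PTBP1 through exon skipping, stood at 19.3 and 17.1 CPM in the UT libraries and 34.5 and 38.3 CPM in the P+I libraries (log2 change 1.00 ± 0.074 (SE), adjusted p = 2.8e-09), while PTBP1 stood at 537 and 512 CPM in the UT libraries and 414 and 424 CPM in the P+I libraries (log2 change -0.32 ± 0.037 (SE), adjusted p = 7.3e-07). CLK4, a kinase of SR proteins, rose from 20.8 and 17.3 CPM to 34.7 and 37.5 CPM (log2 change 0.92 ± 0.076 (SE), adjusted p = 1.2e-08), and SRSF5, an SR protein, by 0.54 (adjusted p = 1.7e-07). U2AF2, the polypyrimidine tract binding subunit, changed by -0.36 (adjusted p = 1.7e-07), and CLK1 did not pass the test (0.13, adjusted p = 0.083). Of the nonsense-mediated decay factors, 8 of 14 were called lower (57.1%) and 0 higher, and 5 and 3 with total-count scaling, where the median went from -0.14 to 0.01. Most of these too lay at 50 CPM or more, so the lower share was near that of their level. MAGOH, of the exon junction complex, changed by -0.89 (adjusted p = 1.3e-10).

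The largest increases included targets of the aryl hydrocarbon receptor, a ligand-activated factor that induces the CYP1 enzymes. Of 13 tested members 10 were called higher and 3 lower, beside 32.2% and 33.1% of all genes. In DESeq2 and with a replicate block 9 were called higher and 3 lower. CYP1A1, the best known target, stood at 2.12 and 2.49 CPM in UT and 22.95 and 24.04 CPM in P+I. CYP1B1 stood at 2.31 and 2.11 CPM in the UT libraries and 14.9 and 16.8 CPM in the P+I libraries (log2 change 2.83 ± 0.13 (SE), adjusted p = 5.5e-12). AHRR, the repressor of the receptor, stood at 8.78 and 9.05 CPM in the UT libraries and 38.6 and 39.7 CPM in the P+I libraries (log2 change 2.13 ± 0.073 (SE), adjusted p = 1.1e-13). No P+I library of these genes came near a UT library. TIPARP, another feedback repressor, stood at 106 and 109.5 CPM in the UT libraries and 169 and 179 CPM in the P+I libraries (log2 change 0.70 ± 0.043 (SE), adjusted p = 2.5e-10). The receptor AHR itself changed by 0.22 (adjusted p = 0.013) and its partner ARNT by -0.33 (adjusted p = 4.4e-05), and the AHR call was lost without UT replicate 1 or P+I replicate 2. The XRE letters were in 36.4% of 11 list members with a promoter entry, beside 7.37% of the 8482 matched genes. Over those genes the XRE did not go with a rise. Its share was 6.38% of 235 genes with a log2 change of 1 or more. It was 10.6% of 329 genes from -2 to -1 and 5.63% of 71 genes at -2 or less. Of 625 genes with an XRE 24.8% were called higher and 52.8% lower, against 28.1% and 47.4% of 7857 without one. In the dNTP synthesis list, which fell, 23.1% of 13 held it. AHRR held a match in the promoter shown above, and CYP1A1 held none within this window.

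The rest of the 15 largest increases at a mean of at least 5 CPM were of diverse function. SEC31B, a coat protein of export from the endoplasmic reticulum, stood at 7.67 and 6.51 CPM in the UT libraries and 69.1 and 56.4 CPM in the P+I libraries (log2 change 3.15 ± 0.12 (SE), adjusted p = 6.1e-13). SCARA5, a ferritin receptor, stood at 2.12 and 2.11 CPM in the UT libraries and 17.2 and 18.4 CPM in the P+I libraries (log2 change 3.07 ± 0.12 (SE), adjusted p = 6.2e-13). DEPTOR, an inhibitor of mTOR kinase, stood at 1.88 and 1.63 CPM in the UT libraries and 13.5 and 14.6 CPM in the P+I libraries (log2 change 3.00 ± 0.15 (SE), adjusted p = 1.4e-11). VIPR1, a receptor of vasoactive intestinal peptide, went from 4.20 and 4.07 CPM to 39.5 and 37.4 CPM, ALS2CL from 2.46 and 2.54 CPM to 21.8 and 20.4 CPM, and MEGF6 from 1.11 and 1.44 CPM to 10.7 and 8.63 CPM. In all 6 the lower P+I library was several times the higher UT library. CCNG2, an atypical cyclin of resting cells, stood at 3.57 and 4.02 CPM in the UT libraries and 21.3 and 20.4 CPM in the P+I libraries (log2 change 2.46 ± 0.10 (SE), adjusted p = 1.2e-12). BMF, a BH3-only protein that promotes cell death, stood at 3.42 and 3.40 CPM in the UT libraries and 19.2 and 17.6 CPM in the P+I libraries (log2 change 2.44 ± 0.12 (SE), adjusted p = 1.0e-11). The lncRNA IGFL2-AS1 stood at 3.62 and 3.59 CPM in the UT libraries and 21.6 and 20.9 CPM in the P+I libraries (log2 change 2.56 ± 0.12 (SE), adjusted p = 7.7e-12). Also among the 15 were YPEL2, PLA2G6, a phospholipase, and ACCS, with log2 changes of 2.52, 2.36 and 2.36. Outside these, NEIL3, a DNA glycosylase, and FAM111B were among the 15 largest decreases, at -2.88 and -2.87.

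In the MYC network, whose MXD members oppose MYC at shared sites, 6 of 11 genes were called higher and 4 lower. MXD4 stood at 31.9 and 32.5 CPM in the UT libraries and 119.8 and 119.97 CPM in the P+I libraries (log2 change 1.90 ± 0.057 (SE), adjusted p = 1.6e-14). MXI1 stood at 12.2 and 11.2 CPM in the UT libraries and 22.4 and 24.7 CPM in the P+I libraries (log2 change 1.01 ± 0.086 (SE), adjusted p = 1.8e-08). MYC itself stood at 353 and 347 CPM in the UT libraries and 398 and 405 CPM in the P+I libraries (log2 change 0.20 ± 0.033 (SE), adjusted p = 5.0e-05). MXD3, another member, changed by -1.28 (adjusted p = 9.2e-06) at a mean of 3.75 CPM. In the BCL2 family, 8 of 13 genes were called lower and 3 higher, and 5 and 4 with total-count scaling. BCL2 fell from 8.58 and 8.86 CPM to 3.77 and 4.34 CPM (log2 change -1.11 ± 0.15 (SE), adjusted p = 6.3e-06), and PMAIP1, the BH3-only protein NOXA, from 18.8 and 20.5 CPM to 8.61 and 10.3 CPM (log2 change -1.06 ± 0.091 (SE), adjusted p = 1.9e-08). MCL1, an inhibitor of apoptosis, changed by -0.26 (adjusted p = 3.5e-06).

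Of the lysosome and autophagy genes, 25 of 51 were called higher and 15 lower, with a median of 0.14, and 33 and 9 with total-count scaling. ULK1, the kinase that starts autophagy, stood at 19.2 and 18.2 CPM in the UT libraries and 55.6 and 50.9 CPM in the P+I libraries (log2 change 1.51 ± 0.077 (SE), adjusted p = 2.3e-11). GABARAPL1, of the autophagosome membrane, stood at 4.97 and 6.94 CPM in the UT libraries and 17.5 and 16.8 CPM in the P+I libraries (log2 change 1.53 ± 0.12 (SE), adjusted p = 5.5e-09). FUCA1, a lysosomal fucosidase, stood at 8.10 and 7.71 CPM in the UT libraries and 17.2 and 18.6 CPM in the P+I libraries (log2 change 1.18 ± 0.088 (SE), adjusted p = 3.3e-09). These rose in both P+I libraries. The sulfatase ARSA and the protease CTSD changed by 1.12 (adjusted p = 6.8e-09) and 0.55 (adjusted p = 3.0e-08), and the membrane protein SCARB2 fell by 0.79 on the log2 scale. GLB1, whose enzyme gives the senescence-associated β-galactosidase stain, did not pass the test, at 68.003 and 65.3 CPM in UT and 65.5 and 64.02 CPM in P+I (log2 change -0.04 ± 0.045 (SE), adjusted p = 0.44), and its sign turned with total-count scaling.

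All 13 genes in the list of mitochondrially encoded genes were called higher, with a median of 1.10. Outside that list, 7 mitochondrial tRNA genes were tested, at a median level of 0.580 CPM. Of these, 2 were called higher and 0 lower. MT-CO1 stood at 7541 and 3831 CPM in the UT libraries and 14644 and 13218 CPM in the P+I libraries (log2 change 1.29 ± 0.18 (SE), adjusted p = 7.1e-06). MT-ND5 stood at 1683 and 835 CPM in the UT libraries and 3394 and 3166 CPM in the P+I libraries (log2 change 1.38 ± 0.18 (SE), adjusted p = 4.7e-06). UT replicate 2 lay well below UT replicate 1 for both genes, and both P+I libraries lay above both. Mitochondrial genes made up 3.44% and 1.83% of gene counts in the UT libraries and 6.85% and 6.29% in the P+I libraries. Without UT replicate 1 the log2 change of MT-CO1 was 1.86, and without UT replicate 2 it was 0.88, both still called. Cytosolic ribosomal protein genes made a small shift the other way, 69 of 79 lower and 3 higher with a median of -0.18. RPLP0 stood at 1623 and 1646 CPM in the UT libraries and 1291 and 1314 CPM in the P+I libraries (log2 change -0.33 ± 0.034 (SE), adjusted p = 2.4e-07), and RPL22 was among the few that rose (0.27, adjusted p = 3.8e-05). With total-count scaling 18 were lower and 6 higher, at a median of -0.03.

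Targets of p53 were divided, with 15 of 29 lower (51.7%) and 10 higher (34.5%), beside 33.1% and 32.2% of all genes. With total-count scaling 9 were lower and 11 higher. The ubiquitin ligase MDM2 stood at 81.6 and 86.3 CPM in the UT libraries and 68.1 and 72.3 CPM in the P+I libraries (log2 change -0.26 ± 0.048 (SE), adjusted p = 1.7e-04). BAX, of the mitochondrial death pathway, stood at 60.3 and 60.6 CPM in the UT libraries and 46.4 and 47.8 CPM in the P+I libraries (log2 change -0.36 ± 0.050 (SE), adjusted p = 6.6e-06). CCNG1 stood at 112 and 114 CPM in the UT libraries and 152 and 160.3 CPM in the P+I libraries (log2 change 0.47 ± 0.045 (SE), adjusted p = 9.3e-08). MDM2 and BAX were lower and CCNG1 higher in both P+I libraries, and the MDM2 call was lost with total-count scaling. The antiproliferative factor BTG2 rose by 0.78, and the translesion polymerase POLH fell by 1.13 on the log2 scale. Interferon-stimulated genes were near the shares of all genes, with 16 of 43 higher (37.2%) and 13 lower (30.2%). IFI44 stood at 83.1 and 79.9 CPM in the UT libraries and 24.98 and 22.9 CPM in the P+I libraries (log2 change -1.76 ± 0.057 (SE), adjusted p = 4.9e-14). HERC5, the ISG15 ligase, stood at 19.7 and 19.01 CPM in the UT libraries and 5.58 and 5.67 CPM in the P+I libraries (log2 change -1.78 ± 0.092 (SE), adjusted p = 2.5e-11). IFIT1, a sensor of foreign RNA, stood at 75.9 and 72.1 CPM in the UT libraries and 50.1 and 51.5 CPM in the P+I libraries (log2 change -0.54 ± 0.057 (SE), adjusted p = 2.7e-07). All 3 fell. STAT2, which carries the interferon signal, rose from 29.8 and 28.5 CPM to 63.5 and 48.2 CPM (log2 change 0.94 ± 0.099 (SE), adjusted p = 2.5e-07), with P+I replicate 1 above replicate 2, and XAF1 rose by 1.21 (adjusted p = 8.1e-09). ISG15 did not pass the test (log2 change -0.05 ± 0.092 SE, adjusted p = 0.62). In the MHC class I list, 3 of 17 were higher (17.6%) and 4 lower (23.5%), both below the shares of all genes. With total-count scaling the counts were 9 and 1. HLA-E rose by 0.43 (adjusted p = 2.5e-08), while B2M, the shared light chain, did not pass the test, at -0.05 (adjusted p = 0.31).

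Published senescence sets moved by small amounts in these libraries. The study scored them in SUM159 by gene set enrichment, after a longer treatment at lower doses of both drugs. Time, dose and measure thus all differ from the counts given here. Of the 36 tested members of the Casella set, 20 were called higher and 8 lower, with a median of 0.23. Of the 36 tested members of the Purcell set, 19 were called higher and 7 lower, with a median of 0.18. Of the 30 tested members of the Hernandez set, 13 were called higher and 8 lower, with a median of 0.10. Of the 22 tested members of the Hernandez SASP (secreted factors) set, 10 were called higher and 4 lower, with a median of 0.14. Of the 67 tested members of the Fridman set, 31 were called higher and 15 lower, with a median of 0.16. These counts stand beside 32.2% higher and 33.1% lower over all genes, and the sets share members, so they do not count separately. With total-count scaling the lower counts were 4 for Casella, 2 for Hernandez and 9 for Fridman. The members that changed differed in kind. MMP1, a collagenase, stood at 14.7 and 15.9 CPM in the UT libraries and 34.6 and 33.3 CPM in the P+I libraries (log2 change 1.15 ± 0.072 (SE), adjusted p = 3.4e-10). C3, of complement, stood at 115 and 116 CPM in the UT libraries and 205 and 206 CPM in the P+I libraries (log2 change 0.83 ± 0.039 (SE), adjusted p = 7.9e-12). CITED2 stood at 79.1 and 73.1 CPM in the UT libraries and 167 and 169.7 CPM in the P+I libraries (log2 change 1.15 ± 0.049 (SE), adjusted p = 2.1e-12). These 3 rose in both P+I libraries. CXCL8, the chemokine IL-8, fell from 16.98 and 14.5 CPM to 11.5 and 12.6 CPM (log2 change -0.39 ± 0.090 (SE), adjusted p = 0.0012), and AXL, a receptor tyrosine kinase, from 508 and 524 CPM to 254 and 261 CPM (log2 change -1.0038 ± 0.035 (SE), adjusted p = 1.1e-13). CYP1A1 belongs to the Purcell set and CYP1B1 to the Fridman set, and both to the receptor pathway above.

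Of the extracellular matrix and TGF-beta genes, 16 of 30 were higher and 5 lower (median 0.15), and 19 and 1 with total-count scaling. TIMP1, an inhibitor of metalloproteases, stood at 1344 and 1317 CPM in the UT libraries and 2071 and 2079.9 CPM in the P+I libraries (log2 change 0.64 ± 0.034 (SE), adjusted p = 3.5e-11). FN1, fibronectin, stood at 1797 and 2037 CPM in the UT libraries and 2719.7 and 2499.5 CPM in the P+I libraries (log2 change 0.45 ± 0.062 (SE), adjusted p = 7.4e-06). LAMB1, a laminin chain, stood at 271 and 287 CPM in the UT libraries and 196 and 185 CPM in the P+I libraries (log2 change -0.55 ± 0.040 (SE), adjusted p = 2.3e-09). The first 2 rose and LAMB1 fell. Of actin genes and SRF or YAP targets, 8 of 20 were higher (40%) and 7 lower (35%), beside 32.2% and 33.1% of all genes. CCN2, a YAP target, rose from 174 and 165 CPM to 320.05 and 338 CPM (log2 change 0.95 ± 0.040 (SE), adjusted p = 1.6e-12), ANKRD1, another, by 0.99 (adjusted p = 3.7e-12), and ACTG1, cytoplasmic actin, fell by 0.70 on the log2 scale. Among keratins and epithelial or mesenchymal genes, 10 of 21 were higher and 6 lower. KRT7 stood at 1995 and 1982 CPM in the UT libraries and 2553 and 2582 CPM in the P+I libraries (log2 change 0.37 ± 0.034 (SE), adjusted p = 4.3e-08). VIM, the mesenchymal filament, stood at 4144 and 3966 CPM in the UT libraries and 2774 and 2755 CPM in the P+I libraries (log2 change -0.55 ± 0.035 (SE), adjusted p = 3.4e-10), and SNAI2, a repressor of epithelial genes, at 61.1 and 61.3 CPM in the UT libraries and 40.9 and 43.1 CPM in the P+I libraries (log2 change -0.54 ± 0.053 (SE), adjusted p = 9.4e-08).

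Lipid synthesis genes fell, 21 of 31 lower and 2 higher with a median of -0.32, and 18 and 2 with total-count scaling. ACLY, which supplies cytosolic acetyl-CoA, stood at 949 and 967 CPM in the UT libraries and 576 and 594 CPM in the P+I libraries (log2 change -0.71 ± 0.034 (SE), adjusted p = 9.6e-12). ACACA, the first step of fatty acid synthesis, stood at 187 and 223 CPM in the UT libraries and 98.3 and 90.7 CPM in the P+I libraries (log2 change -1.12 ± 0.074 (SE), adjusted p = 7.1e-10). P+I lay below UT in both. FASN, the fatty acid synthase, changed by -0.52 (adjusted p = 4.9e-07). Of NRF2 targets, 11 of 21 were higher and 6 lower, and 13 and 2 with total-count scaling. SLC7A11, the cystine importer, stood at 81.1 and 90.4 CPM in the UT libraries and 40.9 and 38.95 CPM in the P+I libraries (log2 change -1.10 ± 0.057 (SE), adjusted p = 2.5e-11). AKR1C3, an aldo-keto reductase, stood at 58.1 and 53.9 CPM in the UT libraries and 125 and 125 CPM in the P+I libraries (log2 change 1.16 ± 0.046 (SE), adjusted p = 6.5e-13). FTH1, the ferritin heavy chain, stood at 3529 and 3511 CPM in the UT libraries and 5860.4 and 5812 CPM in the P+I libraries (log2 change 0.73 ± 0.032 (SE), adjusted p = 3.3e-12). SLC7A11 thus fell while the other 2 rose. AKR1C3 has close paralogs, and reads shared with AKR1C1 or AKR1C2 were not separable here. Of integrated stress and unfolded protein genes, 9 of 29 were higher (31.0%) and 12 lower (41.4%), beside 32.2% and 33.1% of all genes. With total-count scaling 16 were higher and 6 lower. ATF4 changed by -0.10 (adjusted p = 0.015), with the sign turned under that scaling, DDIT3 by 0.32 (adjusted p = 0.034) and HSPA5 by -0.17 (adjusted p = 3.8e-04). The HSPA5 call was lost with total-count scaling, and the DDIT3 call in DESeq2 and without UT replicate 2 or P+I replicate 1. The ATF4 call was also lost without UT replicate 2 or P+I replicate 1. Of cytosolic chaperones, 12 of 19 were lower (63.2%) and 3 higher (15.8%), and 10 and 6 with total-count scaling. Among all genes at 50 CPM or more, 60.6% were lower and 20.4% higher. HSP90AA1 changed by -0.55 (adjusted p = 2.5e-09) and HSPA8 by -0.60 (adjusted p = 2.2e-10), while the heat-inducible HSPA1B rose by 0.34 (adjusted p = 2.6e-05).

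The remaining lists were mixed. Of hypoxia and glycolysis genes, 10 of 26 were higher (38.5%) and 13 lower (50%), beside 32.2% and 33.1% of all genes. EGLN3, an oxygen sensor, stood at 41.9 and 41.9 CPM in the UT libraries and 88.9 and 94.2 CPM in the P+I libraries (log2 change 1.13 ± 0.048 (SE), adjusted p = 2.0e-12). PFKFB4, a regulator of glycolysis, stood at 10.7 and 11.5 CPM in the UT libraries and 22.3 and 22.2 CPM in the P+I libraries (log2 change 1.01 ± 0.079 (SE), adjusted p = 6.3e-09). LDHA and CA9 fell, by 0.25 and 0.67 on the log2 scale, and VEGFA rose by 0.32. Of genes that respond to glucocorticoids, which were in the medium of both groups, 7 of 12 were higher and 4 lower, and 8 and 2 with total-count scaling. Without P+I replicate 1, 4 were called higher. KLF9, TSC22D3 and DUSP1 rose, by 0.68, 0.58 and 0.65, and FKBP5 changed by -0.34. Of the ERK pathway's output genes, 10 of 22 were lower and 4 higher, and 7 and 8 with total-count scaling. FOSL1, an AP-1 subunit, went from 213 and 212 CPM to 111 and 108 CPM (log2 change -0.96 ± 0.039 (SE), adjusted p = 1.1e-12), EGR1 changed by -0.81 (adjusted p = 2.4e-08), and EREG, an EGF receptor ligand, rose by 0.57 (adjusted p = 9.9e-09). Of snoRNA host genes, 7 of 16 were lower and 2 higher, and 5 and 6 with total-count scaling. GAS5 did not pass the test (0.09, adjusted p = 0.15).

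The combination was then tested against each drug alone in the same 8 libraries. Over all genes, 23.4% were higher and 24.9% lower with P+I than with PD, and 24.9% were higher and 28% lower with P+I than with IN. With total-count scaling the share of higher calls against IN went from 47.1% to 62.4%. Against PD, 39 of 55 replication genes were lower and 3 higher, and 59 of 69 mitosis genes were lower and 1 higher. Against IN, all 55 replication and all 69 mitosis genes were lower. The libraries of TOP2A, in CPM, were 281 and 281 with PD and 539 and 548 with IN, so P+I lay below both. The difference from PD was -1.28 ± 0.038 (SE), adjusted p = 8.8e-13. For RRM2 the difference from PD was -1.18 ± 0.064 (SE), adjusted p = 2.7e-10, and for CDC45 it was -1.48 ± 0.073 (SE), adjusted p = 9.8e-11. CDT1 did not pass this test (-0.19 ± 0.10 (SE), adjusted p = 0.14). H2AX was higher with P+I than with PD (0.35 ± 0.065 (SE), adjusted p = 2.7e-04). CCNH stood near its level with indisulam alone. It was 19.8 and 21.1 CPM with IN, and P+I did not differ from IN at the threshold (0.12 ± 0.068 (SE), adjusted p = 0.14), with a difference from PD of -1.15 ± 0.059 (SE), adjusted p = 1.8e-10. RBM39, at 486 and 479 CPM with IN, was lower with P+I than with IN (-0.27 ± 0.035 (SE), adjusted p = 4.6e-06) and higher than with PD (1.05 ± 0.036 (SE), adjusted p = 2.5e-12). PTBP2 had the same order, -0.38 ± 0.061 (SE), adjusted p = 6.1e-05 against IN and 1.10 ± 0.069 (SE), adjusted p = 2.0e-09 against PD. MXD4 was slightly above its level with palbociclib alone, 101 and 114 CPM, with a difference from PD of 0.15 ± 0.048 (SE), adjusted p = 0.014. CYP1A1 was above both drugs, by 2.52 ± 0.091 (SE), adjusted p = 4.5e-12 against PD and 0.90 ± 0.076 (SE), adjusted p = 3.1e-08 against IN.

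Interferon-stimulated genes were called lower more often than higher against PD, and the reverse against IN. Of 43 members, 22 were lower and 8 higher with P+I than with PD, and 20 were higher and 4 lower than with IN. IFIT1 stood at 113 and 101 CPM with PD and 45.5 and 46.7 CPM with IN, with differences of -1.07 ± 0.054 (SE), adjusted p = 1.3e-10 from PD and 0.14 ± 0.059 (SE), adjusted p = 0.054 from IN, the second not past the threshold. PTBP1 lay above PD and below IN, 0.54 ± 0.037 (SE), adjusted p = 5.5e-09 from PD and -0.62 ± 0.037 (SE), adjusted p = 3.7e-10 from IN. Splicing regulators were 21 higher and 12 lower against PD, and 1 higher and 39 lower against IN. Lipid synthesis genes were 21 lower and 0 higher against PD, and 16 lower and 4 higher against IN. SLC7A11 differed from PD by -1.29 ± 0.055 (SE), adjusted p = 1.8e-11, and KRT7 from IN by 0.72 ± 0.034 (SE), adjusted p = 1.3e-11. Of the 13 listed mitochondrially encoded genes only 1 was called against PD and 1 against IN. The 3 treatments share the UT libraries, so their changes against UT are not independent of each other.

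**Figure D3:**
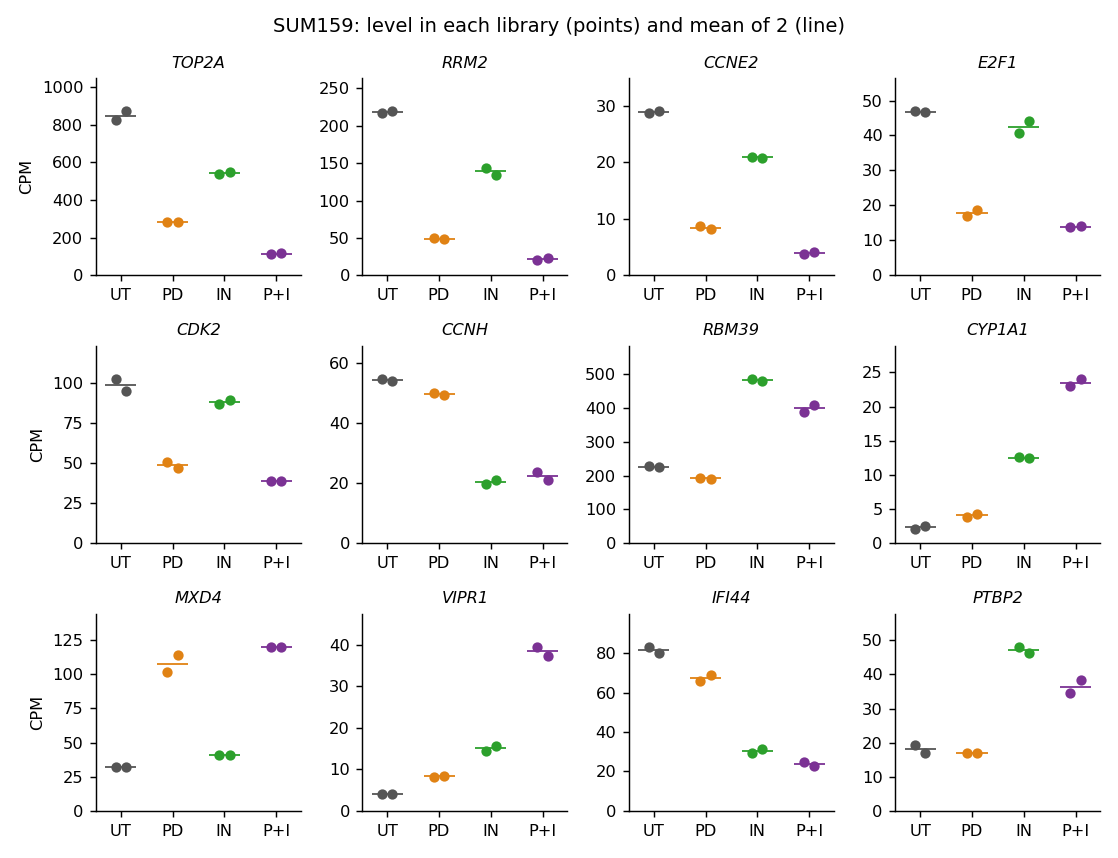
CPM of 12 genes in each of the 8 SUM159 libraries (points) with the mean of 2 (line), each panel from 0 on its own scale. P+I is the lowest group for TOP2A, RRM2, CCNE2, E2F1 and CDK2, lies beside IN for CCNH, beside PD for MXD4, and is the highest for CYP1A1 and VIPR1.

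**Figure D4:**
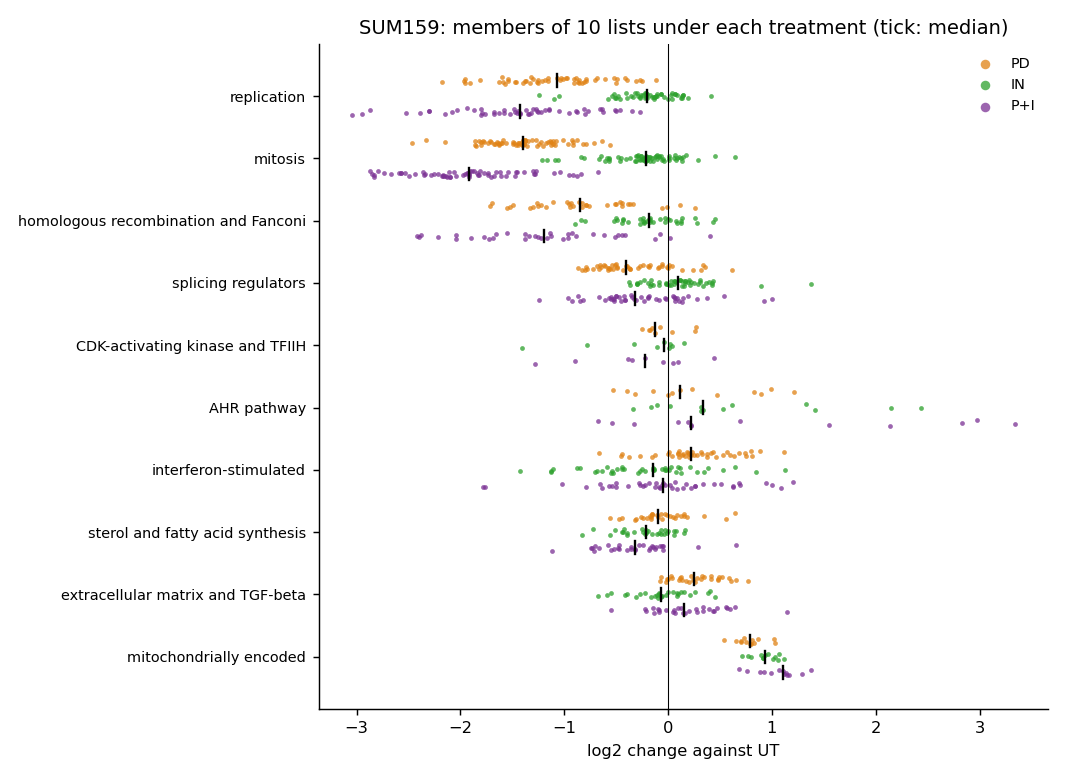
Log2 change against UT of the members of 10 lists (points) under PD, IN and P+I in SUM159, with a tick at each median. The replication medians are -1.07 for PD, -0.20 for IN and -1.42 for P+I, and the mitosis medians -1.40, -0.21 and -1.92.

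The response was also set against that of A549 to the same doses and time, with the difference between the lines tested in 1 fit of all 16 libraries. Of 17764 genes, 30.9% differed (5482 genes). Of these calls 61.8% were higher in SUM159, but 46.6% with DESeq2 size factors and 39.9% with a minimum of 10 counts in every library, so the direction of small differences depends on the scaling. Most falls in the replication and mitosis lists were smaller in SUM159. Of 55 replication genes 36 had a higher (less negative) change than in A549 and 2 a lower one, 27 and 3 with DESeq2 size factors. Of 69 mitosis genes 56 were higher and 0 lower, 50 and 1 with those size factors. The genes of dNTP synthesis went otherwise, with 4 of 15 higher and 5 lower, and medians of -1.14 in SUM159 and -0.71 in A549. TOP2A in A549 was 751 and 807 CPM untreated and 46.2 and 51.2 CPM with both drugs, and the difference in response (SUM159 minus A549) was 1.19 ± 0.068 (SE), adjusted p = 5.4e-12. For E2F7, a repressor induced by E2F, A549 had 37.05 and 38.3 CPM untreated and 4.002 and 4.31 CPM with both drugs, and SUM159 70.9 and 77.5 CPM and 37.9 and 35.5 CPM. The difference was 2.23 ± 0.11 (SE), adjusted p = 8.5e-13. PCNA went against the list, with a difference of -0.69 ± 0.069 (SE), adjusted p = 6.2e-08, and TYMS showed none that passed the test (-0.07 ± 0.074 (SE), adjusted p = 0.54). RBM39 and MXD4 responded with differences of -0.06 ± 0.055 (SE), adjusted p = 0.48 and 0.17 ± 0.11 (SE), adjusted p = 0.26, neither past the threshold.

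Some genes moved in opposite directions in the 2 lines. CDKN1A was 37.6 and 32.7 CPM untreated and 52.3 and 49.5 CPM with both drugs in A549, where it rose, and fell in SUM159 (difference -1.01 ± 0.094 (SE), adjusted p = 2.3e-08). BAX rose in A549 and fell in SUM159, and differed by -0.84 ± 0.074 (SE), adjusted p = 9.3e-09. SNAI2 was 0.258 and 0.282 CPM untreated and 0.966 and 1.03 CPM with both drugs in A549, where it rose, and fell in SUM159 (difference -2.35 ± 0.40 (SE), adjusted p = 7.5e-05). IFI44 fell in SUM159 but did not pass the test in A549 (log2 change 0.90, adjusted p = 0.087, difference -2.60 ± 0.40 (SE), adjusted p = 2.0e-05). EREG, SNAI1 and MMP14 rose in SUM159 and fell in A549, with differences of 1.48 ± 0.071 (SE), adjusted p = 3.2e-13, 1.70 ± 0.25 (SE), adjusted p = 1.4e-05 and 2.02 ± 0.34 (SE), adjusted p = 7.3e-05. Among the largest rises, VIPR1 was 7.85 and 7.83 CPM untreated and 13.7 and 16.4 CPM with both drugs in A549 (difference 2.35 ± 0.16 (SE), adjusted p = 1.3e-10), CYP1B1 was 125 and 126 CPM untreated and 169.96 and 166 CPM with both drugs (difference 2.48 ± 0.13 (SE), adjusted p = 8.3e-13), and SCARA5 was 58.3 and 57.7 CPM untreated and 88.96 and 84.2 CPM with both drugs (difference 2.56 ± 0.13 (SE), adjusted p = 9.3e-13). CYP1A1, at 0.0517 and 0.225 CPM untreated and 0.506 and 0.703 CPM with both drugs in A549, did not differ at the threshold (1.29 ± 0.84 (SE), adjusted p = 0.27). All 13 listed mitochondrially encoded genes differed. MT-CO1 was at 13398 and 14482 CPM untreated and 10948 and 14834 CPM with both drugs in A549 (difference 1.47 ± 0.25 (SE), adjusted p = 6.4e-05). That difference was 2.03 without SUM159 UT replicate 1 and 1.07 without SUM159 UT replicate 2. Of 79 ribosomal protein genes, 70 had a lower change in SUM159, and 75 with DESeq2 size factors. RPLP0 differed by -0.46 ± 0.060 (SE), adjusted p = 3.0e-06.

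**Figure D5:**
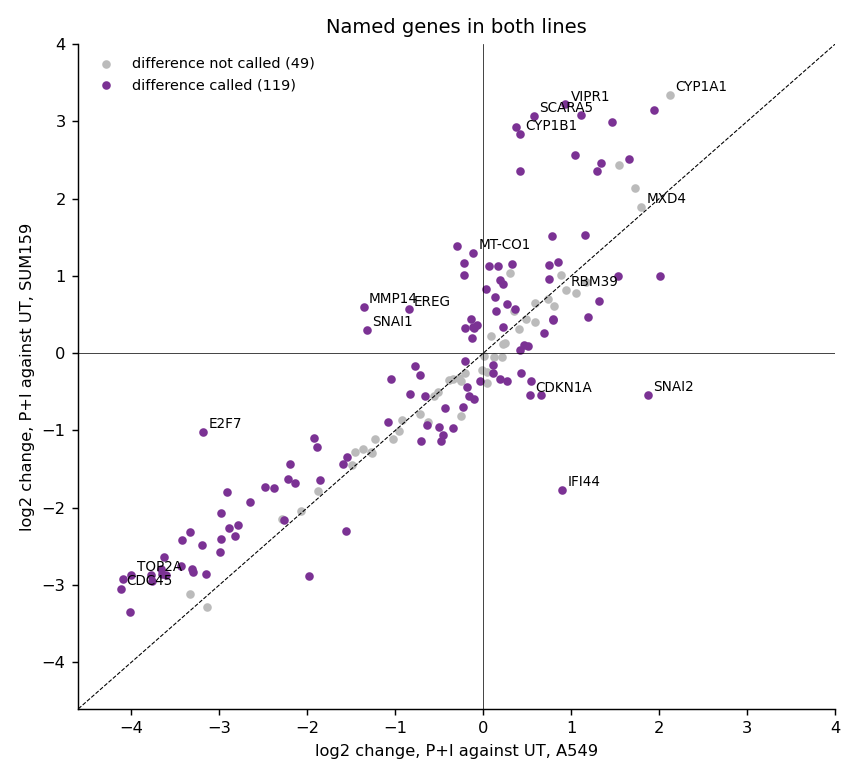
Log2 change of P+I against UT in SUM159 (vertical) and A549 (horizontal) for 168 of the genes named here, with the line of equal change dashed. The difference was called for 119 (purple) and not for 49 (grey), and SNAI2 and CDKN1A, which rose in A549 and fell in SUM159, lie at the lower right. Over all 17764 genes 30.9% differed. The genes drawn were chosen by name, many for a large change in SUM159, so their share is not set against that one.

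The shares called differed between classes of gene structure, which also differed in level. Of 13063 protein-coding genes 31.2% were higher and 38.7% lower, and of 1952 lncRNA genes 39.0% were higher and 8.40% lower. The lncRNA genes lay at a median level of 0.855 CPM against 28.8 CPM, and the levels were not matched. For all genes with a mean below 1 CPM the shares were 31.3% higher and 4.40% lower. Among protein-coding genes whose mean reached 5 CPM, 43.7% of 158 single-exon genes were higher and 33.5% lower, against 27.7% and 49.9% of 3458 genes with 10 to 19 exons. The median log2 changes were 0.08 and -0.13. Their median levels were 25.5 and 48.4 CPM and were not matched. The listed mitochondrially encoded genes, all 13 of which were called higher, were not taken out of the single-exon class. By exonic length, the 2560 shortest genes had 23.7% higher and 50.3% lower, and the 2560 longest 29.6% and 46.3%. Their median levels were 33.4 and 54.9 CPM, again not matched. The third quartile of length had 32.4% higher and 44.5% lower, so the shares did not change steadily with length. In the release used for annotation, 5870 of the 16080 tested genes overlapped another gene on the same strand and 9442 a gene on the opposite strand. The strand setting of the counting is not given in the sources used here, which leaves the opposite-strand overlaps uncertain too. Values of overlapping genes such as CYP1B1 and AHRR (both strands) and ULK1 (same strand) are uncertain to that extent.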

How the data were processed

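RNA of SUM159 and A549 was sequenced from stranded mRNA libraries. Per the submitters' processing notes, the authors aligned reads with HISAT2 2.2.1 to GRCh38 and counted them per gene with HTSeq. The version, strand setting and gene annotation are not given in the sources used here. The deposited values are raw gene counts, and rows naming no gene (13.2% to 16.4% of all counts over the 16 libraries) were left out of totals and tests. Symbols came from the GENCODE 44 annotation, which matched 58207 of 58676 identifiers.

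In this re-analysis, edgeR 4.0.16 (R 4.3.3) fitted the 8 SUM159 libraries with TMM scaling and its filter on low counts, and quasi-likelihood tests compared P+I with UT, PD and IN at a Benjamini-Hochberg adjusted p of 0.05. The difference between lines was fitted on all 16 libraries. CPM are scaled by TMM, except the markers, which are scaled to total gene counts. Fits were also run on simulated counts in which few genes were moved, unlike the broad response here. That run does not test the scaling or the number of calls. DESeq2 1.42.0, other scalings and filters, a replicate block and left-out libraries were the alternatives.

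The comparison and the gene lists were chosen with earlier results of these data known. Genes were named as key members of a list, as up to 4 of the largest changes each way per list and 15 each way over all genes (mean of at least 5 CPM), or as 5 each way from a UT mean under 1 CPM or over 100 CPM. Values are given for a subset of these. CDKN1C, PECAM1, TP53INP1 and BBC3 were added after their values were seen. Some genes of the lists are not reported here.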

Additional observations from a re-analysis of the deposited data

Results flagged for a closer look

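The response to both drugs differed between SUM159 and A549 for the genes given here, which changed in opposite directions or differed by at least 1 on the log2 scale, by the edgeR test of the difference itself with all values adjusted over 17764 genes. The difference (SUM159 minus A549, log2) was positive for the cell cycle genes CDC45 (1.13), TOP2A (1.19), E2F7 (2.23), LMNB1 (1.09) and NCAPH (1.24), all of which fell in both lines. It was positive for CYP1B1 (2.48), VIPR1 (2.35), SCARA5 (2.56), MEGF6 (2.62) and CCNG2 (1.18), which rose in SUM159. For EREG it was 1.48, for SNAI1 1.70 and for MMP14 2.02. It was negative for CDKN1A (-1.01), BAX (-0.84), SNAI2 (-2.35), IFI44 (-2.60) and RPLP0 (-0.46). Of the mitochondrial genes, MT-CO1 differed by 1.47, MT-ND5 by 1.74 and MT-ATP6 by 1.45, and these values rest in part on UT replicate 2 of SUM159, which held less mitochondrial RNA than UT replicate 1.

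Reads that were assigned to no annotated feature made up 6.78% and 5.94% of counted reads in the P+I libraries of SUM159, a mean of 6.36%, against 3.99% and 3.89% in UT. They were 4.96% and 5.45% with PD and 5.70% and 6.08% with IN. Such reads need not lie outside genes, and their source was not tested.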

How the results depend on the processing

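For SUM159 P+I against UT, the alternatives in scaling, filter and tool called between 8699 and 10605 genes, against 10496. Leaving out 1 library gave 9092 to 9702 for UT, 5976 to 6636 for PD, 6801 to 7486 for IN and 4285 to 5036 for the difference between lines, each within 1.5 times of its count. Requiring an absolute log2 change of at least 1 left 2399. Of 171 genes followed by name against UT, 153 kept their direction and side of the threshold under every alternative, as did 23 of 24 against PD, 21 of 24 against IN and 24 of 26 between lines. The sign turned with total-count scaling for GLB1 (0.11), ISG15 (0.094), B2M (0.095) and ATF4 (0.046), and with at least 10 counts in every library for GLB1 (0.0013). Total-count scaling moves every gene by the same amount, which is its construction.

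The replicate number as a block gave 10311 calls against UT, 7443 against PD, 8211 against IN and 5390 between lines. Same-numbered libraries of UT and P+I had deviations correlated at 0.0072, of PD and P+I at -0.114 and of IN and P+I at -0.044, so the numbers were not taken to pair the samples. With the numbers of P+I crossed, an alternative chosen after seeing the data, 8231 genes were called against PD. With 2 libraries a group, small changes of low genes were limited by depth, and between-culture spread was not measured.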
